A study of Mus musculus with 32 samples.

Results

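The 7 genes described here are those of the MHC class II pathway that were chosen by symbol: H2-Aa, H2-Ab1, H2-Eb1, H2-DMa, H2-DMb1, Cd74 and Ciita. Each symbol matched 1 of the 50686 genes in the tables, and all 7 passed the filter on low counts in every model. They were followed in polyA RNA from sorted cells of mouse intestinal crypts, in 32 libraries that form 8 groups of 4. The cells were stem cells, which carry much Lgr5-eGFP, and progenitors, which carry little. Both were gated as EpCAM-positive, CD24-low or negative, and free of CD31, Ter119, CD45 and the death dye 7AAD. All mice were C57BL6 and carried Villin-CreER together with Lgr5-GFP-IRES-CreER. Mice with these drivers alone are called wild type, and Cpt1a-deficient mice carried Cpt1afl/fl in addition. Villin-CreER acts in the intestinal epithelium, and the Lgr5 driver in the stem cells, so loss of the floxed allele is limited to epithelium. Within each genotype the diet was either a high-fat diet or a diet labelled as its control, here the control diet. The labels give no ages. They give 2 female and 2 male samples per group, but the table columns carry only the group. The 4 libraries of a group therefore bear the letters a to d, given by column order. Nothing in the labels says that the 4 samples of a group came from separate animals, so the p-values measure the spread between these samples.

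MHC class II molecules are cell surface proteins that show peptides from endocytosed protein to CD4+ T cells. An alpha chain and a beta chain form the molecule: H2-Aa and H2-Ab1 encode the pair called I-A, and H2-Eb1 encodes the beta chain of I-E. C57BL6 mice lack the I-E alpha chain, so the H2-Eb1 product has no usual partner in them. Cd74, the invariant chain, fills the peptide groove during transport through the cell, and H2-DMa and H2-DMb1 form H2-DM, which exchanges the remaining Cd74 fragment for peptide. Ciita is the transcriptional coactivator that switches the whole set on, and interferon gamma induces it. It does not bind DNA itself but docks on a protein assembly at the promoters, made of RFX proteins on the X box, a CREB protein on the neighbouring X2 box and NF-Y on the Y box. Dendritic cells, macrophages and B cells carry the pathway at all times, whereas epithelial cells acquire it under inflammatory signals, and in the intestine Lgr5-positive stem cells are among the cells known to carry it.

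The promoter stretches below are shown because they hold letters like those of the X and Y boxes described above. Whether Ciita acts through them was not tested. RefSeq promoter entries on GRCm38.p6, which run from 250 bases before to 50 bases after the start of transcription, were found for H2-Aa, H2-Eb1, H2-DMa and H2-DMb1. H2-Ab1, Cd74 and Ciita had none in the table. In the stretches of H2-Aa (chr17:34287857-34287915, minus strand) and H2-Eb1 (chr17:34305765-34305822, plus strand), capitals mark the core of the X box first and then ATTGG, which is the Y box letters CCAAT read on the other strand.
H2-Aa: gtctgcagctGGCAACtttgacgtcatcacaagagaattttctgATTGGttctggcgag
H2-Eb1: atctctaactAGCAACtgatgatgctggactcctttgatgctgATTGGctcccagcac
The search asked for AGNAAC followed on the strand of the gene by ATTGG that starts 25 to 45 bases later. H2-Eb1 has this pair at positions -92 and -59 from the start, and H2-DMb1 has it at -95 and -61. Of 32841 RefSeq promoters of the same length, 182 or 0.554% hold the pair on that strand. H2-Aa has GGCAAC at -82 and ATTGG at -48, which only the looser form NGNAAC finds. That form was chosen after the sequences were seen, and 555 promoters or 1.69% hold it. On either strand the shares were 1.14% and 3.47%. On both strands TGACG, part of the X2 box, was found in H2-Aa, next to the X box core, and in none of the other entries, while 20.8% of all promoters hold it. The E box CACGTG was found in none of the members' entries, and 7.15% of all promoters hold it. H2-DMa has 2 RefSeq starts, and neither form was found in either entry. These entries lie at chr17:34122582-34122881 and chr17:34125268-34125567, in a gene annotated from 34119541 to 34139101. Starts of its 8 annotated transcripts beyond these 2 entries were not searched. The stretch of H2-Aa lies in no gene of the GENCODE M21 annotation, and that of H2-Eb1 lies before H2-Eb1, inside the antisense gene Gm20513.

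The X box of H2-DMb1 is set here beside that of H2-DMb2, its neighbouring copy. The stretches of 26 bases start at the same distance from ATTGG in both promoters, and capitals mark the X box core or the same place in the copy. That of H2-DMb1 (chr17:34153086-34153111, plus strand) lies in an annotated exon of H2-DMb1, and that of H2-DMb2 (chr17:34145115-34145140, plus strand) lies in an intron of an annotated H2-DMb2 transcript.
H2-DMb1: aggtttacctAGTAACtgatgatgct
H2-DMb2: aggtttacctATTAACcgatgatgct
They differ at 2 places, G12T and T17C, with the H2-DMb1 base first and positions counted from 1 at the 5′ end. The promoter entries also differ outside this stretch. H2-DMb2 had 0 to 3 estimated counts in each of the 32 libraries, whereas H2-DMb1 had 38 to 622. Whether any of the base differences bears on these levels was not tested. The counting estimates how reads are shared between near-identical copies, so a few reads could have been moved from one copy to the other.

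The libraries held 3307711 to 7337425 estimated counts, with a median of 5655066.5. Cpt1a, the carnitine transferase of mitochondrial fatty acid oxidation, was at 18.8 to 30.6 CPM, here a gene's share of its library's total scaled by the TMM method, in the Cpt1a-deficient libraries. Wild-type libraries held 118.8 to 346.6 CPM of Cpt1a, so every library matched its labelled genotype. Lgr5 was at 282.3 to 515.2 CPM in stem cells and at 11.9 to 85.7 CPM in progenitors, and Epcam was at 1904 to 2762 CPM in all libraries. In every group libraries a and b had 44.4 to 107.3 CPM of Xist, the RNA of the inactive X chromosome, and libraries c and d had at most 0.56 CPM.

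Defining genes of the immune cells that carry MHC class II constantly were at or near 0 in these libraries. Ptprc, which encodes CD45, reached at most 0.614 CPM. The dendritic cell genes Itgax and Flt3 reached at most 0.353 and 0.653 CPM, and the macrophage genes Csf1r and Adgre1 at most 0.423 and 0.174 CPM. The 8 B cell markers together summed to 0.354 to 3.23 CPM per library, with Pax5 and Blk at 0 counts in all of them, while Cd74 was never below 101.2 CPM. The 12 T cell and innate lymphocyte markers summed to at most 1.33 CPM, with Cd4 and Ifng at 0 in every library. The 18 myeloid and dendritic markers summed to 29.7 to 58.0 CPM. Most of that came from Cd14 and Itgam, which reached 42.3 and 34.3 CPM. The sum lay between 32.8 and 58.0 CPM in wild-type stem cells on the control diet and between 29.7 and 41.4 CPM in those from high-fat feeding. Chains that B cells and thymic cells use in addition, H2-Oa, H2-Ob and H2-Eb2, and the I-E alpha pseudogene H2-Ea-ps, had 0 or 1 count per library.

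Most members sit side by side in the MHC on chromosome 17 (GRCm38, GENCODE M21). H2-DMa (ENSMUSG00000037649) spans chr17:34119541-34139101 and H2-DMb1 (ENSMUSG00000079547) chr17:34153072-34160230, both on the plus strand. H2-Ab1 (ENSMUSG00000073421) follows at chr17:34257689-34269419 on the plus strand, then H2-Aa (ENSMUSG00000036594) at chr17:34282744-34287823 on the minus strand and H2-Eb1 (ENSMUSG00000060586) at chr17:34305867-34316674 on the plus strand. Ciita (ENSMUSG00000022504) lies apart at chr16:10480059-10528418 on the plus strand, and Cd74 (ENSMUSG00000024610) lies outside the MHC as well.

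Levels per transcript length can be compared between genes, and for this the deposited log2 values were turned back to TPM, which divide counts by transcript length and by the library total. In wild-type stem cells on the control diet Cd74 was at 2452 ± 44.0 TPM (SD, n = 4), rank 26 of all 50686 genes. The I-A chains followed, H2-Ab1 at 861.7 ± 49.3 TPM and H2-Aa at 285.4 ± 11.5 TPM. H2-Eb1 was at 225.4 ± 14.2 TPM although its alpha partner was absent. H2-DMa was at 110.9 ± 13.9 TPM and H2-DMb1 at 91.0 ± 3.09 TPM, and these were the only neighbours in the order whose libraries overlapped. Ciita was by far the lowest, at 6.36 ± 0.847 TPM and rank 9781.

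**Figure D1:**
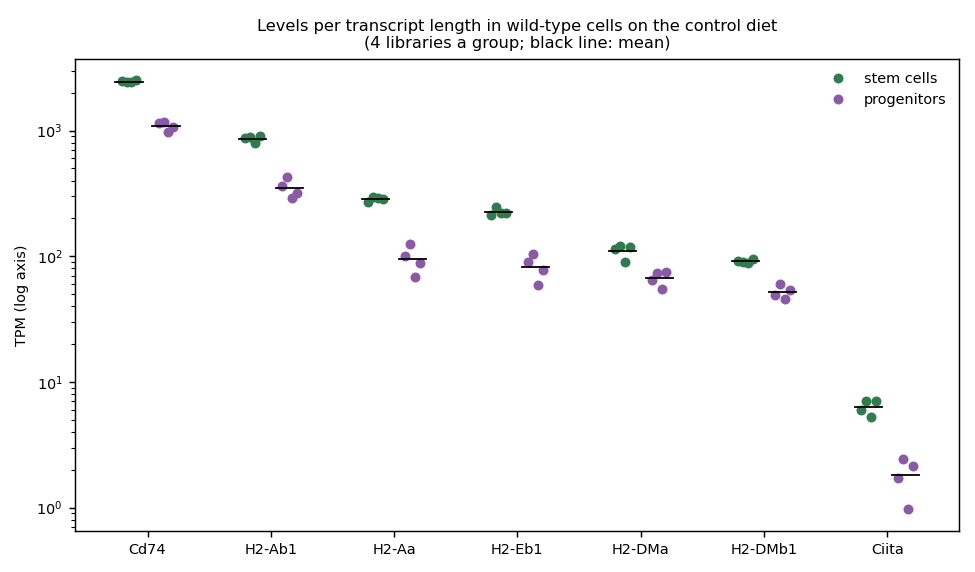
TPM on a log axis of the 7 genes in wild-type mice on the control diet, with green points for 4 stem cell libraries, purple points for 4 progenitor libraries and a black line at each mean. Cd74 is highest and Ciita lowest in both populations, and each gene's stem cell points lie above its progenitor points.

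Cd74 and H2-Ab1 led and Ciita came last in progenitors too, while the genes between them lay closer together. In wild-type progenitors on the control diet Cd74 was at 1088 ± 87.1 TPM and H2-Ab1 at 350.4 ± 59.4 TPM. H2-Aa at 95.4 ± 23.9 TPM, H2-Eb1 at 82.6 ± 19.5 TPM and H2-DMa at 66.9 ± 9.30 TPM overlapped with their neighbours in the order there. In high-fat wild-type progenitors H2-DMa came next after H2-Ab1, at 33.2 ± 15.8 TPM, then H2-Eb1 at 27.6 ± 18.5, H2-DMb1 at 24.1 ± 15.6 and H2-Aa at 22.9 ± 16.9 TPM, which did not differ beyond their spread. The TPM of Cd74 was 2.24 to 3.85 times that of H2-Ab1 over all 32 libraries, a narrow range beside the 19.1-fold span of Cd74 in CPM. H2-Ab1 was 2.70 to 4.29 times H2-Aa in the 16 stem cell libraries and 3.0 to 8.02 times in the 16 progenitor libraries. The widest span of 1 gene was that of H2-Aa, from 5.16 to 249.7 CPM, and the narrowest was that of H2-DMa, from 15 to 108.6 CPM.

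Stem cells held more RNA of all 7 genes than progenitors. Averaged over the 4 groups of genotype and diet, Ciita was higher in stem cells by 1.42 ± 0.17 on the log2 scale (estimate ± SE, 95% interval 1.07 to 1.78), with means of 13.1 and 4.78 CPM. Its adjusted p in edgeR's quasi-likelihood test with Benjamini-Hochberg adjustment was 2.58e-08. H2-Aa was higher by 1.44 ± 0.31, H2-Eb1 by 1.3 ± 0.23, Cd74 by 1.08 ± 0.20 and H2-Ab1 by 1.05 ± 0.23, with adjusted p of 0.000297, 2.23e-05, 5.19e-05 and 0.000358. The H2-DM genes showed the smallest differences, 0.57 ± 0.16 for H2-DMa and 0.66 ± 0.22 for H2-DMb1, with adjusted p of 0.00242 and 0.00965. The count of 7 of 7 has to be read against a contrast in which 63.5% of 13088 genes were called, 32.5% as higher in stem cells. Over 16 against 16 libraries the ranges of every member overlapped. Between libraries of the same genotype, diet and letter, stem cells were higher in 16 of 16 pairs for each gene, though no label pairs them. The share of all genes that were higher in every such pair was not counted.

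Within a single genotype and diet, separation and the test gave different pictures. In wild-type mice on the control diet Cd74 was at 1750, 1663, 1672 and 1750 CPM in stem cell libraries a to d and at 948.0, 1043, 823.2 and 967.9 CPM in progenitors. All 4 stem cell libraries lay above all 4 progenitor libraries for Cd74 and for each of the other 6 genes. Of all genes tested there, 17.6% separated in this direction. Ciita and H2-Eb1 were called in this group, and 41.4% of genes were called in either direction. Ciita held 18.6, 21.1, 16.1 and 21.5 CPM in the stem cell libraries and 6.18, 9.46, 3.59 and 8.54 CPM in the progenitor libraries, a log2 difference of 1.44 ± 0.33 (adjusted p 0.000810).

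On the high-fat diet 4 genes were called in wild-type mice, H2-Aa, H2-Eb1, Cd74 and Ciita, beside 37.3% of all genes. In Cpt1a-deficient mice H2-Eb1 and Ciita were called on the control diet, where 36.8% of genes were. H2-Eb1, Cd74 and Ciita were called on the high-fat diet, where 31.4% were. The numbers in the column names form 4 runs of 8 consecutive numbers, each with 1 library of every group, and the names do not say what such a header set is. With a term for the header set, chosen after seeing the data, the counts in wild-type mice were 5 on the control diet and 6 on the high-fat diet, and those in deficient mice 5 and 6. The 4 counts also depended on single libraries. The count of 2 in wild-type mice on the control diet became 1 without any 1 of the stem cell libraries a to d or the progenitor libraries a, c or d. The count of 4 on the high-fat diet became 1 without stem cell library a or b, and 2 without progenitor library c or d. In deficient mice the count of 2 on the control diet became 1 without stem cell library b or progenitor library a, c or d, and 5 without progenitor library b. The count of 3 on the high-fat diet became 1 without stem cell library b and 0 without progenitor library a or c.

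**Figure D2:**
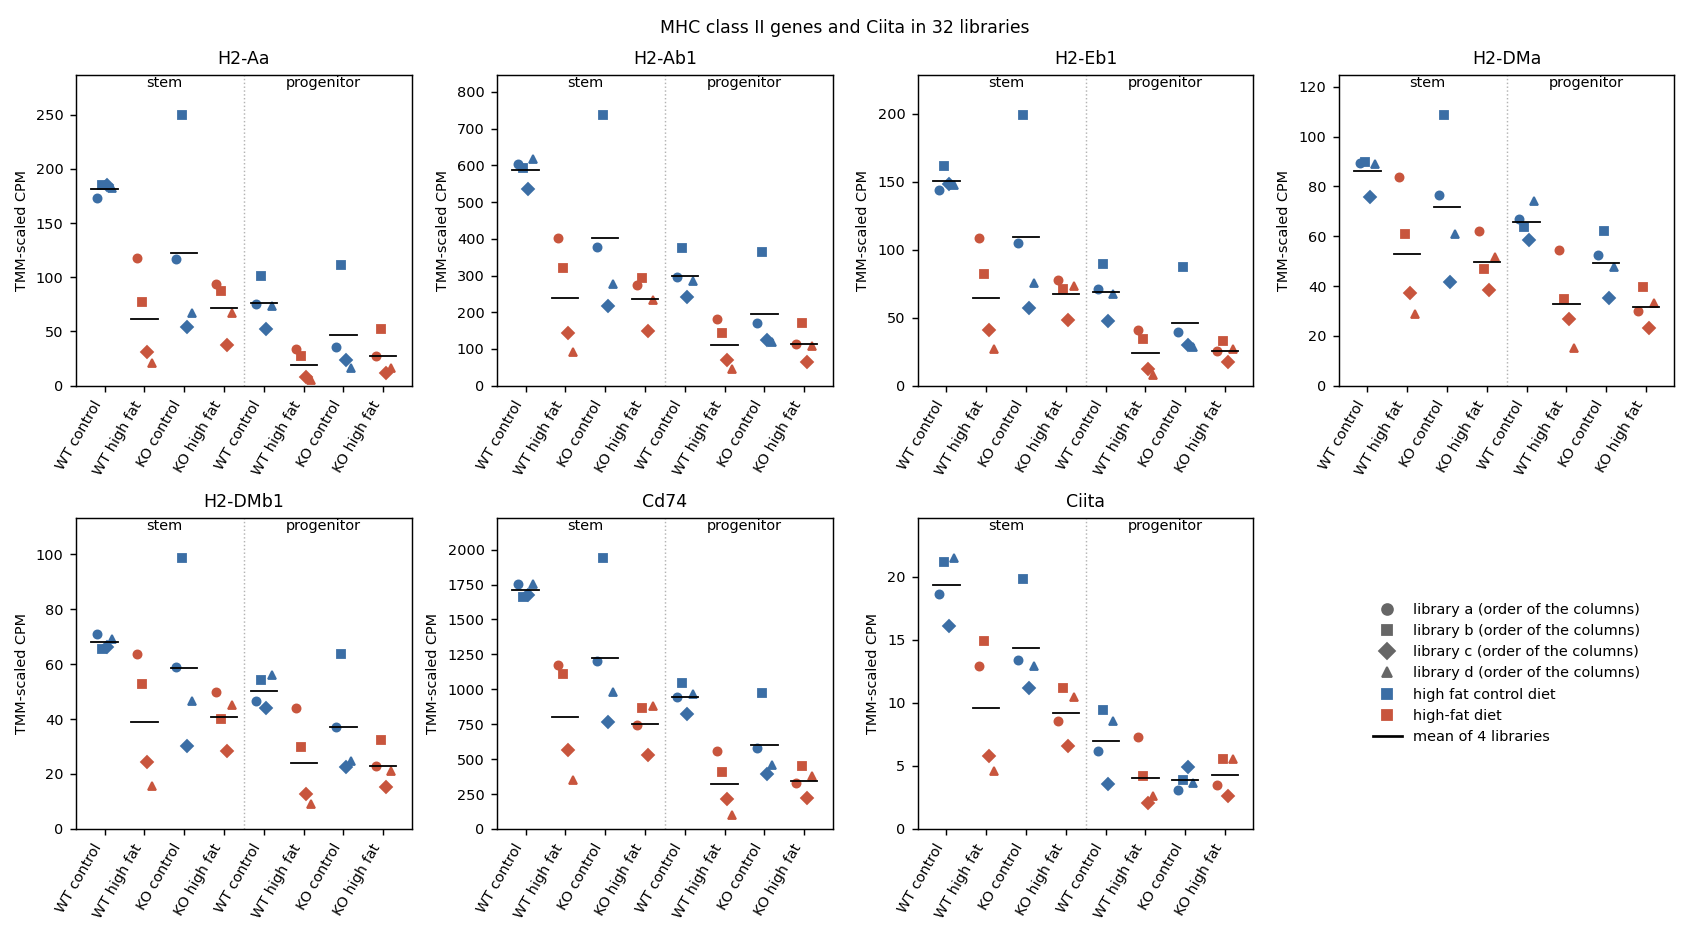
TMM-scaled CPM of each gene in every library, by genotype and diet, with stem cells left and progenitors right of the dotted line, 1 marker shape for each of the libraries a to d, blue for the control diet, red for the high-fat diet and a black line at the mean of 4. Wild-type stem cells on the control diet lie close together, Cd74 between 1663 and 1750 CPM, while those from high-fat feeding spread from 347.2 to 1171 CPM.

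High-fat feeding of wild-type mice came, in stem cells, with lower levels of all 7 genes, and none of them passed the test over all genes. The levels also varied more than in the tight control group, a difference in spread that was not tested. In deficient stem cells Cd74 varied more on the control diet (SD 509.9 CPM) than on the high-fat diet (SD 163.7 CPM). Cd74 was at 1171, 1108, 567.4 and 347.2 CPM in libraries a to d on the high-fat diet, against 1663 to 1750 CPM on the control diet. All high-fat libraries lay below all control libraries, libraries c and d the furthest. The log2 difference was -1.10 ± 0.35 (95% interval -1.86 to -0.34), or 2.14-fold lower, with an unadjusted p of 0.00812 and an adjusted p of 0.246. The 2 diets gave group means of 798.5 ± 404.9 and 1709 ± 47.8 CPM (SD, n = 4).

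The I-A chains moved in the same order. H2-Ab1 was at 401.5, 321.0, 144.3 and 91.2 CPM on the high-fat diet and at 605.1, 593.6, 535.3 and 617.0 CPM on the control diet, a log2 difference of -1.29 ± 0.45 (adjusted p 0.296). H2-Aa was at 118.2, 77.3, 31.4 and 20.6 CPM against 173.3, 184.8, 184.9 and 182.8 CPM, a log2 difference of -1.53 ± 0.55 (adjusted p 0.312). For both chains library d had the lowest level on the high-fat diet and no library overlapped with the control diet. H2-Eb1 was at 108.5, 81.8, 41.1 and 26.8 CPM against 143.9, 161.4, 148.0 and 147.9 CPM, a log2 difference of -1.21 ± 0.42 (adjusted p 0.286), again without overlap.

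The peptide exchange genes differed less. H2-DMb1 was at 63.6, 52.9, 24.3 and 15.5 CPM on the high-fat diet and at 70.8, 65.5, 66.4 and 69.2 CPM on the control diet, which gave -0.78 ± 0.40 and an adjusted p of 0.476. H2-DMa was at 83.9, 60.8, 37.2 and 28.9 CPM against 89.4, 89.7, 75.7 and 89.2 CPM, and it was the 1 gene whose libraries overlapped. Its log2 difference was -0.70 ± 0.31 (adjusted p 0.409). H2-DMa overlaps Brd2 on the other strand, and no source used here states whether the counting used strand.

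Ciita, the coactivator, was at 12.9, 14.9, 5.81 and 4.58 CPM in high-fat libraries a to d of wild-type stem cells and at 18.6, 21.1, 16.1 and 21.5 CPM on the control diet. All 4 high-fat libraries lay below all 4 control libraries. The log2 difference of -0.98 ± 0.29 (95% interval -1.60 to -0.36) had the smallest p of the 7 genes, 0.00371 unadjusted and 0.184 adjusted. In estimated counts Ciita ran from 26 to 138 per stem cell library, the fewest of the 7 genes, and it overlaps the antisense neighbour Dexi.

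For all 7 genes together, 0 were called in edgeR for the diet in wild-type stem cells, where 0.25% of 12409 genes were called, 0.0403% as lower. DESeq2, limma on log2 TPM and limma voom with quality weights also called 0. Ciita was called (-1.06, adjusted p 0.0371) with the term for the header set. At an unadjusted p under 0.05, 6 of the 7 were lower, as were 5.77% of all genes, and 6 of the 7 separated without overlap in that direction, as did 3.19% of all genes. The members went together between libraries of a group, as given below, so counts of the 7, here and elsewhere, are not of independent genes. The median difference was -1.10 over the members and 0.01 over all genes. In bulk RNA, fewer cells that carry a transcript and less of it in each cell cannot be told apart.

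Markers of other epithelial cells were measured in the same stem cells. Of the goblet cell markers 2 of 12 tested were called as higher on the high-fat diet, of the Paneth cell markers 1 of 11, of the enteroendocrine markers 1 of 7, of the enterocyte markers 1 of 12 and of the tuft cell markers 0 of 4, where 0.21% of all genes were called as higher. At an unadjusted p under 0.05 these counts were 10, 1, 3, 6 and 2, beside 5.88% of all genes. None of the stem cell markers (11 tested) or proliferation genes (10 tested) was called. The part of these cells in the diet difference was not tested. The goblet cell sums did not overlap between the diets, so the covariate of goblet, Paneth and enteroendocrine markers given below cannot be fully separated from the diet. That covariate holds no tuft cell or enterocyte markers. The 12 goblet cell markers summed to 311.8 to 635.8 CPM in wild-type stem cell libraries on the control diet and to 927.0 to 1105 CPM on the high-fat diet. The 12 Paneth cell markers summed to 189.4 to 2603 and 1530 to 2802 CPM, which overlap, and the 12 enteroendocrine markers to 15.9 to 57.6 and 55.1 to 137.6 CPM. The 10 tuft cell markers summed to 4.93 to 10.6 and 14.4 to 17.1 CPM and the 12 enterocyte markers to 1654 to 2115 and 1835 to 2657 CPM. The 12 stem cell markers summed to 16549 to 19420 and 14461 to 16858 CPM, and the 10 proliferation genes to 2255 to 2595 and 2268 to 2978 CPM. The 9 markers of endothelium and stroma stayed at or under 1.99 CPM in sum. Lgr5 was at 433.7 to 470.4 CPM on the control diet and at 282.3 to 515.2 CPM on the high-fat diet. With the mean level of the goblet, Paneth and enteroendocrine lists as a covariate the median difference of the 7 genes was -0.91, and 0 of them had an unadjusted p under 0.05. With the stem cell marker level as the covariate the median was -1.07, and 6 of the 7 were under 0.05.

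**Figure D3:**
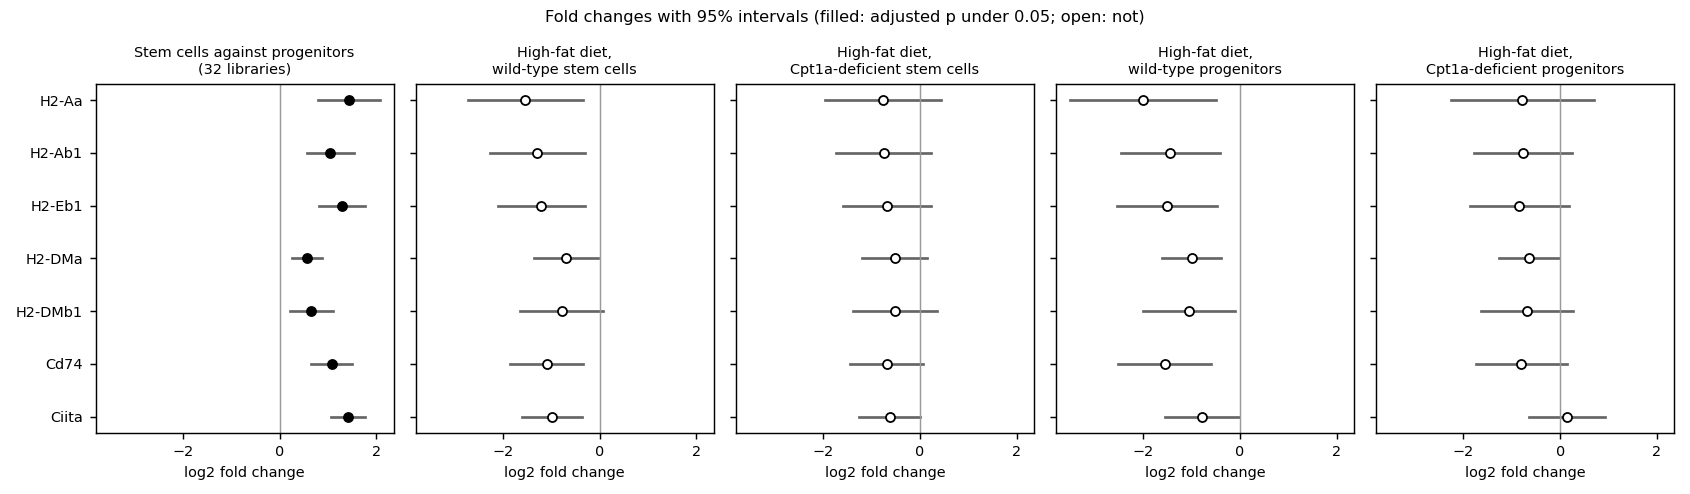
Log2 fold change with its 95% interval for each gene in 5 comparisons, with filled points where the adjusted p was under 0.05 and open points elsewhere. The 7 filled points for stem cells against progenitors lie above 0, and the diet estimates are open and lie below 0 except Ciita in Cpt1a-deficient progenitors at 0.14.

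In Cpt1a-deficient stem cells the differences between the diets were smaller in size, with overlapping libraries. Cd74 was at 742.6, 863.4, 526.5 and 882.7 CPM on the high-fat diet and at 1205, 1937, 763.5 and 979.9 CPM on the control diet, a log2 difference of -0.68 ± 0.35. Control library b was the highest stem cell library of all for 6 genes, the exception being Ciita, at 19.8 CPM. Ciita was at 8.56, 11.2, 6.55 and 10.4 CPM on the high-fat diet against 13.4, 19.8, 11.2 and 12.9 CPM, a difference of -0.63 ± 0.30. The 7 differences ran from -0.76 for H2-Aa to -0.51 for H2-DMb1. In edgeR 0 of 7 were called, where 0.0645% of all genes were, and 0 were lower at an unadjusted p under 0.05, where 2.22% of all genes were. DESeq2 and both limma fits called 0 as well. Without control library b the median went from -0.68 to -0.26.

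The diet effect was not shown to differ between the genotypes. In stem cells the interaction ran from 0.17 ± 0.44 for H2-DMa to 0.77 ± 0.77 for H2-Aa, with unadjusted p of 0.335 or more. In edgeR 0 of 12409 genes were called for it and 3.58% had an unadjusted p under 0.05, while DESeq2 and both limma fits called 0 of the 7. For Cd74 it was 0.41 with a 95% interval of -0.65 to 1.48, and for Ciita 0.36 with an interval of -0.53 to 1.24. These intervals include effects as large as the diet difference in wild-type stem cells. In progenitors the interaction ran from 0.35 ± 0.41 for H2-DMa to 1.23 ± 0.97 for H2-Aa. Ciita had the smallest unadjusted p there in edgeR, 0.0893, at 0.93 ± 0.52 (95% interval -0.16 to 2.03). Of 12460 genes 0 were called for it, and 4.5% had an unadjusted p under 0.05.

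Averaged over both genotypes in stem cells, all 7 genes had lower levels after high-fat feeding, by -0.61 ± 0.22 for H2-DMa to -1.15 ± 0.39 for H2-Aa. Ciita was closest to the threshold, at -0.80 ± 0.21 and an adjusted p of 0.0965, followed by Cd74 at -0.89 ± 0.25 and 0.144. In edgeR 0 of 7 were called beside 0.959% of all genes, and 7 of 7 were lower at an unadjusted p under 0.05, as were 5.96% of all genes. DESeq2 called 2, limma voom with quality weights 1 and limma on log2 TPM 0. The header set term gave 1, Ciita at an adjusted p of 0.0128. With the Xist level of each library as a covariate 6 of 7 were called, H2-DMb1 being the exception at an adjusted p of 0.151. The share of all genes called with that covariate is not given here, so a general gain in calls cannot be told apart. Without high-fat library b of wild-type stem cells Ciita passed, at -0.96 and an adjusted p of 0.0245.

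Progenitors gave the same picture as stem cells for the chains and Cd74 in wild-type mice: lower levels after high-fat feeding, without a call. In wild-type progenitors Cd74 was at 558.8, 410.1, 216.3 and 101.2 CPM on the high-fat diet and at 948.0, 1043, 823.2 and 967.9 CPM on the control diet, a log2 difference of -1.56 ± 0.44 (adjusted p 0.437). H2-Aa was at 34.2, 27.4, 7.93 and 5.16 CPM against 75.8, 101.5, 52.6 and 73.8 CPM, a difference of -2.01 ± 0.70 or 4.02-fold (adjusted p 0.596). H2-Ab1 and H2-Eb1 differed by -1.44 ± 0.47 and -1.52 ± 0.48, and H2-DMa and H2-DMb1 by -1.0 ± 0.29 and -1.06 ± 0.44. None of these 6 genes overlapped between the diets, as held for 1.49% of all genes in this direction.

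Ciita in progenitors stood nearer to its limit of detection. It was at 7.25, 4.19, 2.08 and 2.58 CPM on the high-fat diet and at 6.18, 9.46, 3.59 and 8.54 CPM on the control diet in wild-type cells, and the libraries overlapped. The log2 difference was -0.79 ± 0.36 (adjusted p 0.684), and the counts behind progenitor libraries were 11 to 52. For the diet in wild-type progenitors edgeR called 0 of 7 genes and 0.0883% of all 12460, with 7 of 7 lower at an unadjusted p under 0.05 beside 3.08% of all genes. DESeq2 called 2 and both limma fits 0.

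In Cpt1a-deficient progenitors the 6 genes other than Ciita differed between the diets by -0.65 ± 0.29 for H2-DMa to -0.84 ± 0.48 for H2-Eb1. Ciita was at 3.47, 5.51, 2.58 and 5.57 CPM on the high-fat diet against 3.09, 3.88, 4.88 and 3.61 CPM, and the difference of 0.14 ± 0.37 lay within the spread of the libraries. In edgeR 0 of 7 were called beside 0.313% of all genes, and 1, H2-DMa, was lower at an unadjusted p under 0.05 beside 4.71% of all genes. DESeq2 and both limma fits called 0. Without control library b the median of the 7 went from -0.77 to -0.30.

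Over both genotypes the progenitors gave -0.82 ± 0.20 for H2-DMa (adjusted p 0.0941), -1.18 ± 0.31 for Cd74 (adjusted p 0.133) and -0.32 ± 0.26 for Ciita (adjusted p 0.691). In edgeR 0 of 7 were called beside 0.891% of all genes, with 6 lower at an unadjusted p under 0.05 beside 4.95% of all genes. DESeq2 called 4, limma voom with quality weights 1 and limma on log2 TPM 0. With the header set term 4 were called, H2-Aa, H2-Ab1, H2-Eb1 and H2-DMa. With the Xist level as a covariate 5 were called. For neither of these settings is the share of all genes called given here. Without high-fat library a of wild-type progenitors Cd74 and H2-DMa passed, at adjusted p of 0.0479 and 0.00634.

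Stem cells and progenitors were not shown to differ in their response to the diet. The diet effect in stem cells minus that in progenitors, averaged over genotypes, was -0.49 ± 0.35 for Ciita (95% interval -1.20 to 0.22) and 0.28 ± 0.40 for Cd74 (interval -0.55 to 1.11). The other 5 genes lay between 0.07 and 0.23. In edgeR, DESeq2 and both limma fits 0 of 7 were called, and 0 had an unadjusted p under 0.05 in edgeR, where 0 of 13088 genes were called and 5.24% were under 0.05.

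Loss of Cpt1a came with no called difference in any of the 7 genes. In stem cells on the control diet the deficient mice were lower by -0.22 ± 0.39 for H2-DMb1 to -0.58 ± 0.54 for H2-Aa, with overlapping libraries. On the high-fat diet the differences in stem cells ran from -0.10 to 0.19, with a 95% interval of -0.84 to 0.67 for Cd74 and -0.73 to 0.56 for Ciita. In progenitors on the control diet Ciita was lower by -0.86 ± 0.36, with an unadjusted p of 0.0288 and an adjusted p of 0.773. It was at 3.09 to 4.88 CPM in deficient progenitors and at 3.59 to 9.46 CPM in wild-type ones. The other 6 genes differed there by -0.41 to -0.70, and on the high-fat diet all 7 lay between -0.06 and 0.52. The edgeR test called 0 of 7 in each of these comparisons, beside 0.242% and 0.443% of all genes in stem cells on the control and the high-fat diet and 0.257% and 0.706% in progenitors. Ciita in progenitors on the control diet was the 1 value with an unadjusted p under 0.05, and 2.64% of all genes were lower there by that measure. Averaged over diets 0 of 7 were called and 0 were under an unadjusted p of 0.05 in either population. The shares of all genes were 0.83% and 7.01% in stem cells and 1.21% and 11.2% in progenitors. DESeq2 and both limma fits called 0 of 7 in all 6 comparisons.

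The order of the group means was shared by the chains and Cd74 at its top. For Cd74 it ran from 1709 CPM in wild-type stem cells on the control diet through 1221 ± 509.9 in deficient stem cells on the control diet to 945.5 ± 91.2 in wild-type progenitors on the control diet. Stem cells from high-fat feeding came next, wild-type and deficient, at 798.5 ± 404.9 and 753.8 ± 163.7 CPM, and did not differ beyond their spread. Deficient progenitors on the control diet were at 602.4 ± 259.5 CPM. The lowest groups were the progenitors on the high-fat diet, deficient at 346.3 ± 96.7 and wild-type at 321.6 ± 203.1 CPM, which overlapped. For Ciita the 4 stem cell groups held the 4 highest means, and the 4 progenitor groups ran from 3.86 to 6.94 CPM.

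Libraries of 1 group differed from each other more in these genes than in most. The standard deviation of log2 CPM around the group mean was 0.47 for Ciita to 0.81 for H2-Aa in stem cells and 0.45 for H2-DMa to 1.0 for H2-Aa in progenitors. The median over 9654 genes was 0.19 in stem cells and 0.17 in progenitors, and each of the 7 genes lay between the 96.2 and 99.5 percentile. These deviations went together among the members. Over 16 stem cell libraries the correlation of deviations between any of the 6 genes other than Ciita was 0.923 to 0.989, and over 16 progenitor libraries it was 0.807 to 0.978. These libraries share the scaling and the preparation of each sample.

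The deviations of Ciita went with those of the chains and Cd74 in both populations, and the difference in r between the populations was not tested. With Cd74 its deviations had r = 0.940 and rho = 0.921 in stem cells, with a permutation p of 1e-05 for both, the smallest that 100000 resamples can give. The adjusted values over 12 relations were 6e-05. Without the 2 libraries farthest from the median r was 0.910. In progenitors the values were r = 0.615 with a permutation p of 0.0109 (adjusted 0.0120) and rho = 0.659 with a permutation p of 0.00682 (adjusted 0.0102), and r was 0.520 without the 2 farthest libraries. With H2-Ab1 the values of r were 0.919 and 0.632. Centring on the group means leaves fewer free values than libraries. No allowance for this is stated for the permutation, so its p-values may be too small, which matters most in progenitors. With the deviations also centred by header set, r between Ciita and Cd74 was 0.916 in stem cells and 0.540 in progenitors. These set-centred values were given no p-value. Ciita had 26 to 138 counts in stem cell and 11 to 52 in progenitor libraries.

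**Figure D4:**
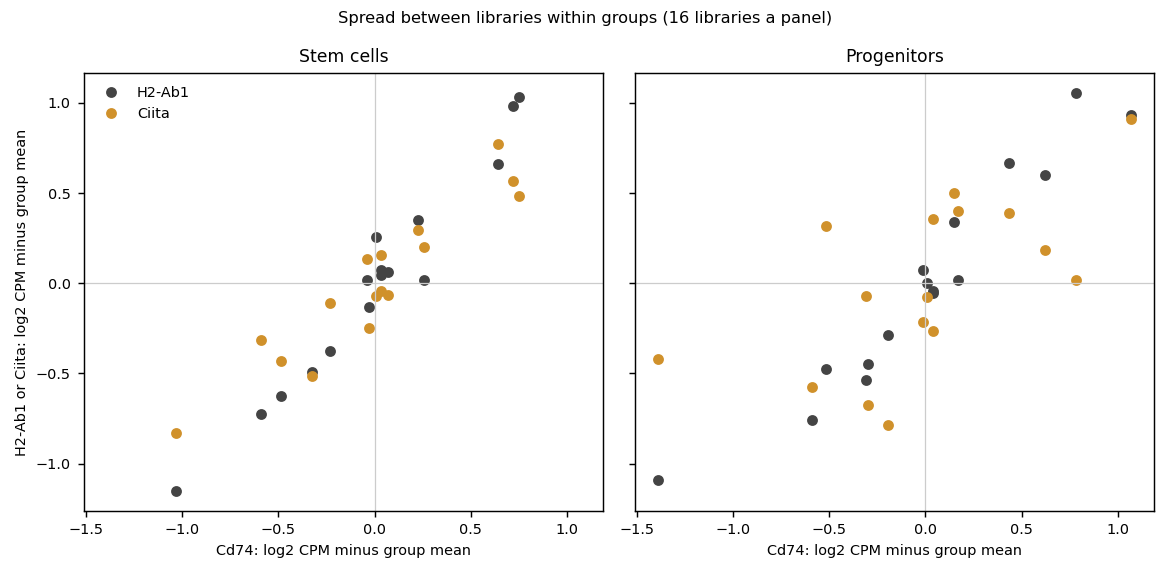
Deviation of H2-Ab1 (grey) and Ciita (orange) from the group mean against that of Cd74, in log2 of CPM plus 0.5, for 16 stem cell libraries on the left and 16 progenitor libraries on the right. H2-Ab1 follows Cd74 closely in both panels, while Ciita scatters more in progenitors.

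Xist moved with the members. Over 32 libraries its deviation from the group mean had r = 0.735 with the mean deviation of the 6 genes other than Ciita. Among high-fat libraries of wild-type stem cells a and b, which hold Xist RNA, were above c and d for all 7 genes. Cd74 split likewise in deficient stem cells on the control diet, at 1205 and 1937 against 763.5 and 979.9 CPM. It did not in wild-type stem cells on the control diet, where a to d were at 1750, 1663, 1672 and 1750 CPM. In deficient stem cells on the high-fat diet library d was the highest for Cd74, at 882.7 CPM. In each group 2 libraries held Xist RNA and 2 did not, the same numbers as the 2 female and 2 male samples in the labels. The columns do not give the sex of a library. Both diets held as many libraries with Xist RNA as without, and the part of Xist in the diet difference was tested only through the covariate given above.

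Among 9654 genes with a mean log2 CPM of at least 3, the gene whose deviations were most like those of Ciita over 32 libraries was Irf8, an interferon regulatory factor, at r = 0.794. Fads2, a fatty acid desaturase, followed at 0.777, then H2-Ab1 at 0.764, H2-Eb1 at 0.764 and Cd74 at 0.751. For the mean of the other 6 members the most alike gene was Psmb8, an immunoproteasome subunit that lies between class II genes on chromosome 17, at 34197721 to 34201454. Its r was 0.900. Aldoc, a glycolytic aldolase, was at 0.837, Bysl, a ribosome assembly factor, at 0.791, Ptp4a3 at 0.766 and Pusl1 at 0.766.

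Genes for the proteins that hold Ciita at the promoters gave no call between the diets. Of the 10 genes for RFX, NF-Y, Creb1 and acetyltransferases, 0 passed the edgeR test for the diet in wild-type stem cells, with a median of -0.08 and 1 under an unadjusted p of 0.05. Over all genes 0.25% were called and 5.77% were lower at that p. The 1 gene was the acetyltransferase Kat2b at -0.49 ± 0.22. Between stem cells and progenitors 5 of the 10 were higher and 1 lower, where 32.5% of all genes were higher and 31% lower. Ep300 and Crebbp, the acetyltransferases that Ciita recruits, were higher in stem cells by 0.51 ± 0.09 and 0.34 ± 0.07, and Rfx5, the large RFX subunit, by 0.47 ± 0.10. Nfyc, an NF-Y subunit, was lower by -0.20 ± 0.04.

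Genes of interferon gamma signalling mostly had negative differences between the diets, and none was called. In wild-type stem cells 13 of 15 had negative differences, with a median of -0.24, 0 called in edgeR and 4 lower at an unadjusted p under 0.05. The median of all genes was 0.01, and 5.77% of them were lower at that p. Irf9 was at -0.44 ± 0.14 (adjusted p 0.213) and Irf1 at -0.36 ± 0.13 (adjusted p 0.267). In wild-type progenitors 14 of 15 were negative and 0 were called, with Irf1 at -0.40 ± 0.09 (adjusted p 0.196). Between the populations 4 of 15 were higher in stem cells and 2 lower, shares under those of all genes (32.5% and 31%). Among them were Irf2 at 0.32 ± 0.05 and Stat3 at -0.37 ± 0.09.

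Of 22 listed interferon response genes, 12 passed the filter in stem cells. In wild-type stem cells 10 of these had negative differences on the high-fat diet, with a median of -0.62, where the median of all genes was 0.01. The 1 called gene went the other way: Ly6e, a membrane protein, rose by 0.80 ± 0.15 (adjusted p 0.0409). Of all genes 0.21% were called as higher. Between stem cells and progenitors 3 of 15 tested genes were higher, where 32.5% of all genes were, and 5 were lower, near the 31% of all genes. The guanylate binding proteins Gbp6 and Gbp9 and the related GTPase Iigp1 were higher in stem cells by 1.51 ± 0.22, 1.99 ± 0.43 and 2.03 ± 0.48. Psme2, a proteasome activator subunit, was lower by -0.44 ± 0.08.

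Genes of the endosomal steps that feed class II with peptide gave no call for the diet. In wild-type stem cells 0 of 12 passed in edgeR and 3 were lower at an unadjusted p under 0.05, beside 5.77% of all genes, among them the proteases Ctsl at -0.42 ± 0.16 and Ctss at -0.35 ± 0.14. Ctsl was higher in stem cells than in progenitors by 0.76 ± 0.09, while Ctsz, Cst3, an inhibitor of cathepsins, and March8, which marks class II for degradation, were lower by -0.41 ± 0.04, -0.31 ± 0.05 and -0.44 ± 0.06. In all 4 of the 12 were higher, near the 32.5% of all genes, and 6 were lower, where 31% of all genes were.

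Of the costimulation and checkpoint genes only 4 of 9 passed the filter in stem cells. Icam1, an adhesion molecule for T cells, was higher in stem cells than in progenitors by 1.80 ± 0.21 (adjusted p 1.28e-08). On the high-fat diet it was at 1.23 to 2.17 CPM in wild-type stem cells against 2.19 to 7.85 CPM, a difference of -1.46 ± 0.39 (adjusted p 0.131). Of the 13 class I presentation genes 1 was higher in stem cells and 9 were lower, where 32.5% of all genes were higher and 31% lower. H2-D1 was lower by -0.49 ± 0.05, and the difference from the class II genes was not tested. None of 12 passed for the diet in wild-type stem cells, with 3 lower at an unadjusted p under 0.05, beside 5.77% of all genes. Of 7 tested epithelial defence genes 6 were lower at that p, the same count as among the 7 class II genes, with a median of -0.92. The 1 called was Nos2, the inducible nitric oxide synthase, which fell by 1.87 on the log2 scale (SE 0.36, adjusted p 0.0409). Of all genes 0.0403% were called as lower there.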

How the data were processed

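PolyA RNA was measured in 32 libraries of 8 groups. The submitters' processing notes name mm10 and, as tools, SAMtools 1.3, RSEM 1.3.0 and STAR 2.5.3a, without a role, an annotation or a strand setting. The authors deposited estimated counts per Ensembl gene as whole numbers, and a second table of log2 values of TPM plus 1. Gene symbols were taken by Ensembl ID from a reference table (50376 of 50686 matched), positions from GENCODE M21 and promoters from RefSeq on GRCm38.p6. No value column was left without a group. The unmatched IDs made up 0.0677% of all counts.

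Counts were tested in edgeR 4.0.16 (R 4.3.3) after TMM scaling and filterByExpr (minimum count 10). Its quasi-likelihood test was run with robust dispersion, and p-values were adjusted by Benjamini-Hochberg over every gene tested, with calls at 0.05. One model held the 16 stem cell libraries (12409 genes), another the 16 progenitor libraries (12460 genes), and a joint one served comparisons between populations (13088 genes). Each SE was derived as |log2 fold change| / sqrt(F). The scripts were tested on simulated data. Alternatives used DESeq2 1.42.0 and limma 3.58.1, other scaling, filters, covariates and leaving out each library. Correlations were of deviations from the group mean in log2 of CPM plus 0.5.

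Replicate libraries correlated at 0.964 to 0.979, and no 2 columns were identical. Library totals of 3307711 to 7337425 limit Ciita most. The members were given by symbol, and the 8 pathway lists and 11 marker lists, tests and alternatives were chosen with earlier results of these data known. Per pathway list and comparison at most 4 called genes could be named, by lowest p, or at most 2 if none was called, besides the 5 genes most like Ciita and the 5 most like the other members. Not every such gene is named.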

Additional observations from a re-analysis of the deposited data

Results flagged for a closer look

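H2-DMa was at 75.7 CPM in library c of wild-type stem cells on the control diet, while the other 3 libraries of the group lay between 89.2 and 89.7 CPM. The gap took 0.959 of the range of the group, above the limit of 0.829 for 4 libraries. It was the only one of 56 combinations of gene and group past this limit, which chance alone passes in about 1 of 20.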

How the results depend on the processing

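Stem cells held more of all 7 genes than progenitors in each of 39 alternatives of the comparison averaged over groups. Single genes were followed in 5 of the 20 comparisons: stem cells against progenitors over all groups, and the diet in wild-type cells and over both genotypes, in each population. No direction reversed in these 875 values, of which 845 kept their side of the threshold and 30 passed it newly. In others the median of the 7 genes changed sign when 1 library was left out. For loss of Cpt1a on the high-fat diet the median ran from -0.28 to 0.35 in stem cells and from -0.19 to 0.47 in progenitors, the lower end without wild-type library d and the upper without wild-type library a. For the diet effect in stem cells minus that in progenitors it ran from -0.02, without control library b of deficient progenitors, to 0.42. The number of the 7 genes called depended on the setting elsewhere. For the diet averaged over genotypes in progenitors it went from 0 to 4 with DESeq2, 4 with a term for the header set, 1 with limma voom and quality weights and 5 with Xist as a covariate. In stem cells these settings gave 2, 1, 1 and 6. For the diet in wild-type progenitors DESeq2 gave 2. In wild-type stem cells the header set term gave 1, Ciita at -1.06 with an adjusted p of 0.0371. Header sets are the 4 runs of 8 consecutive numbers in the column names, each with 1 library of every group. The names do not say what a set is, and this term was chosen after seeing the data. For stem cells against progenitors in wild-type mice on the control diet the 2 calls became 5 with the header set term, 5 with limma on log2 TPM, 1 with no filter and 5 with Xist. In deficient mice on the control diet they became 5, 6, 1 and 5 by the same settings and 4 with limma voom. On the high-fat diet the 3 calls in deficient mice became 6, 7, 1 and 6, and the 4 in wild-type mice became 7 with limma on log2 TPM. Totals over all genes are given for only some of these settings, so a general gain in calls cannot be told apart. The cause was not tested.

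Leaving out 1 library at a time gave 7 to 7 calls for stem cells against progenitors over all groups, and within groups 1 to 2 (wild type, control diet), 1 to 6 (wild type, high-fat diet), 1 to 5 (deficient, control diet) and 0 to 4 (deficient, high-fat diet). For the diet averaged over genotypes it gave 0 to 2 in progenitors and 0 to 1 in stem cells, and 0 to 0 in the other 13 comparisons. The genes called for the diet in wild-type stem cells numbered 31 of all genes in edgeR, 180 with DESeq2, 100 with the header set term, 61 with limma voom, 57 with Xist, 56 with no filter, 18 and 5 with the secretory and stem cell marker covariates, 16 with limma on log2 TPM and 2 from the compared groups alone. In wild-type progenitors the 11 calls over all genes became 47 with DESeq2, 0 with the header set term, 18 with no filter, 18 and 1 with the stem cell and secretory covariates, 7 with Xist and 4 from the compared groups alone. In deficient stem cells the 8 calls became 43 with DESeq2, 22 with no filter, 16 with limma voom, 16 with limma on log2 TPM, 15 with the header set term, 18 from the compared groups alone, and 2 and 1 with the stem cell and secretory covariates. In deficient progenitors the 39 calls became 118 with DESeq2, 106 with limma voom, 67 with no filter, and 90 and 5 with these covariates. Averaged over genotypes the diet gave 119 calls in stem cells, 250 with DESeq2, 180 with the header set term, and 66 and 15 with the covariates, and 111 in progenitors, 240 with DESeq2, and 186 and 24 with the covariates. For loss of Cpt1a DESeq2 called 60 against 30 and 106 against 55 genes in stem cells and 83 against 32 and 190 against 88 in progenitors, on the control and the high-fat diet. In averages over diets it called 166 against 103 and 273 against 151. On the high-fat diet limma voom called 142 in place of 88 in progenitors, and the compared groups alone gave 25 in place of 55 in stem cells. No paired analysis was possible because the columns carry no replicate numbers, so the planned replicate block was not run, and the term for the header set is a block whose meaning no label gives. Stem cell and progenitor libraries of the same group and set deviated together in the 7 genes (r = 0.70 to 0.97 over 16 pairs), and stem cells were higher in 16 of 16 pairs for each gene, a hint from the data and not from the design. Neither measure was counted over all genes. The low counts of Ciita limit what can be said of it in progenitors.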
